A study of Mus musculus with 2 samples.

Results

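The lung mesenchymal fibroblasts described here were 249 barcodes of a single-cell RNA-seq matrix of sorted fetal mouse lung cells, 2.90% of the 8598 barcodes that carried 1 hashtag and passed the quality limits, out of 10648 barcodes in all. They were chosen by their transcripts, counted as raw unique molecular identifiers (UMIs). Each member held at least 10 UMIs of Col1a2, Col3a1 and Tcf21 together, at most 1 of Cldn5 (endothelium), at most 3 of Sftpb (alveolar type 2 epithelium), at most 2 of Higd1b, Cox4i2 and Gucy1a1 together (pericytes) and at most 3 of Hdc (mast cells and basophils). The first condition kept 482 singlets, and the exclusions left 377, 331, 306 and 249 in turn. These 9 genes chose the members, so their levels are given as values with no test.

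The study sorted live (FVD-) CD45+ Lin- ST2+ cells, the gate for type 2 innate lymphoid cells (ILC2s), from lungs of wild-type fetuses on gestation day 18. From gestation day 12 the mothers, 9 weeks old when obtained, drank water that held 1.3 µg/ml of the synthetic glucocorticoid dexamethasone (DEX), or the phosphate-buffered saline vehicle (PBS). All lungs of a mother's litter were pooled and marked with 1 hashtag antibody (litters DEX-1 and DEX-2, 8 and 9 fetuses; litters PBS-1 and PBS-2, 5 and 8 fetuses), so the litter is the replicate and no value belongs to a single fetus. Values for the 4 litters are given in the order DEX-1, DEX-2, PBS-1, PBS-2. The comparison asked which transcripts of the fibroblasts differed between the 2 DEX litters and the 2 PBS litters.

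Lung fibroblasts build the collagen and elastic fibre scaffold of the distal lung and send growth factors such as Fgf10 and Wnt2 to the epithelium as it branches and forms alveoli. Before birth the mesenchyme is divided among alveolar fibroblasts, which carry Tcf21 and Mfap4, contractile myofibroblasts, and adventitial fibroblasts around vessels and airways. Glucocorticoids act through the receptor encoded by Nr3c1, which mesenchymal cells of the fetal lung use in maturation, and fibroblasts can regenerate active steroid with the enzyme Hsd11b1.

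The litters gave 34, 112, 50 and 53 members with 307957, 844170, 422111 and 523112 UMIs, and a median of 7461 UMIs per barcode (range 2358 to 33712). Their hashtags were weak. The median count of the top hashtag was 93, 58, 86 and 71, against 446.5, 1174, 802 and 714 in the other singlets of the same litters. Of 578 barcodes that passed the quality limits and the transcript rule, 329 (56.9%) had no single hashtag, against 1811 of all 10409 barcodes past those limits (17.4%).

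**Figure D1:**
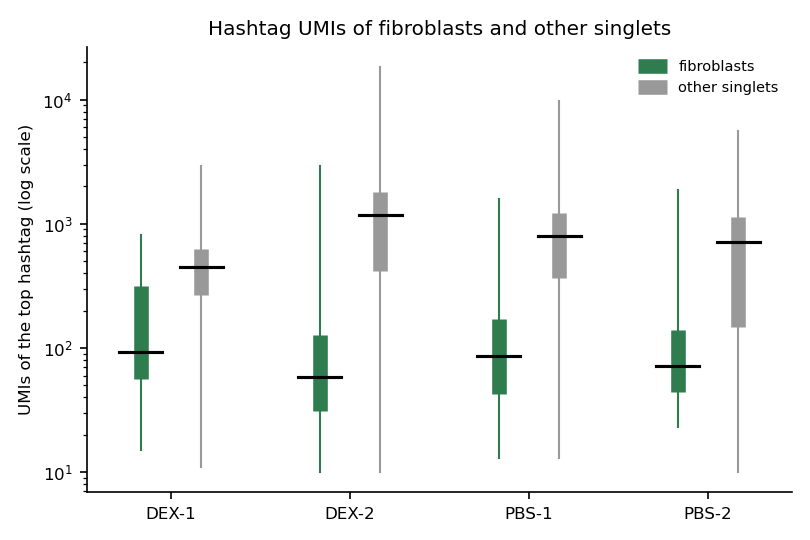
UMIs of the top hashtag (log axis) in fibroblasts (green) and in other singlets (grey) of each litter; thin lines span the lowest to the highest barcode, thick bars the middle quartiles, and black lines mark the median. The fibroblast medians lie between 58 and 93 and those of the other singlets between 446.5 and 1174.

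The members carried a full fibroblast transcript set beyond the genes that chose them. Col1a1, the partner chain of Col1a2 in type I collagen, had a UMI in 97.2% of members, and its level in counts per 1e6 UMIs (CPM) was 955, 1239, 1161 and 1071, against 24.0 CPM in the other singlets pooled. Tbx4, a transcription factor of lung mesenchyme, had a UMI in 66.7% of members, and Wnt2 in 62.7%. The rule genes themselves stood at 1015 CPM for Col1a2, 1311 for Col3a1 and 2388 for Tcf21, with a median of 17 Tcf21 UMIs per member. After each barcode was thinned to 2000 UMIs, Col1a1 remained in 76.3% of members and Wnt2 in 32.1%. In B cells, taken as 214 singlets with at least 3 Cd79a UMIs and under 10 of the 3 rule markers, both genes should be absent, and each was found in 0 of 199 after thinning, which allows a share of up to 1.51% (0.935% for Col1a1 without thinning, at a median of 3592.5 UMIs per barcode). Ptprc, which encodes the CD45 protein of the sort, had a UMI in 6.83% of members and in 64.5% of the B-marked barcodes, and its thinned shares were 3.61% and 38.7%. The limit on rule markers would keep barcodes with much fibroblast RNA out of the B-marked set. Low shares of Col1a1 and Wnt2 there were thus partly set by that choice. The fibroblast label rests also on markers that the rule did not use. The labels give the sorted cells as ILC2s. The 14 ILC2 markers, all with a UMI in members, summed to 1422, 374, 519 and 577 CPM by litter. The other singlets pooled, which hold many cell types, stood at 1602 CPM, so the DEX-1 members came near that level. Sftpc, the surfactant gene of alveolar type 2 cells, was found in 80.7% of members but also in 76.2% of B-marked barcodes. These shares were taken without thinning, at medians of 7461 and 3592.5 UMIs per barcode, and their source was not tested.

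Among genes with a UMI in at least 30% of members, those with the largest ratio of members to other singlets were Srpx2 (68.7), Dpt (67.3), Wnt2 (63.6), Pcolce2 (63.3), Mfap4 (62.6), Slc36a2 (62.6) and Vcam1 (62.5). Dpt, Pcolce2 and Mfap4 encode proteins of the collagen and elastic matrix, and Wnt2 a ligand received by epithelium. Mfap4, a glycoprotein of elastic fibres, stood at 10901 CPM, and elastin (Eln) at 2983 CPM with a UMI in 98.8% of members. The list also held the proteoglycan gene Ogn (61.8), Clec3b (61.7), the lymphatic growth factor gene Vegfd (56.1) and Adh1, an enzyme of retinol oxidation (55.1). These ratios describe barcodes that were selected on related genes and carry no test.

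The genes of steroid handling were present. Hsd11b1, which regenerates active glucocorticoid, had a UMI in 67.5% of members, at 646 CPM against 23.7 CPM in the other singlets. Its counterpart Hsd11b2, which inactivates the hormone, had 12 UMIs in all members. The receptor gene Nr3c1 stood at 175 CPM in members and 189 CPM in the other singlets. Nr3c2, the mineralocorticoid receptor gene, had 3 UMIs in total. Among ligands that act on immune cells, Tslp stood at 45.8 CPM with a UMI in 29.3% of members. Il33, the ligand of the ST2 receptor used in the sort, had 3, 5, 9 and 6 UMIs.

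Leiden clustering of the members on genes outside the rule gave 7 subclusters, which are described by their leading genes and by marker lists. Subclusters 1 (79 barcodes) and 2 (64) carried the alveolar fibroblast list at 32061 and 34059 CPM summed over its genes. Without Tcf21, a gene of the rule, the list stood at 28725 and 29487 CPM there and at most 14954 CPM in the other subclusters, and both are called alveolar fibroblast-like. Subcluster 1 was led by Dnajb1, Thbs1, Mettl21e, Maff and Tiparp, of which Dnajb1 and Maff are stress-response genes, and it held 47491 CPM of the immediate early and dissociation list against 25805 in subcluster 2. Subcluster 2 was led by Tcf21, Nbr1, Gng11, Hivep3 and Fgf10. Subcluster 3 (42 barcodes) was led by Tgfbi, Ccdc3, Nrxn3, Enpp2 and Igf1, held the myofibroblast and smooth muscle list at 12078 CPM against at most 2024 in the others, and is myofibroblast-like; its median sum of the 3 rule markers was 14, near the minimum of 10. Subcluster 5 (18 barcodes) was led by Ccl11, Ptn, Mfap5, Dlk1 and Sfrp1 and held the adventitial list at 11950 CPM and the collagen list at 13615 CPM.

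The other subclusters carried genes of other cell types. Subcluster 4 (33 barcodes) was led by the leukocyte genes Cd52, Rac2, Ctla2a, Srgn and Coro1a, had a median of 15511 UMIs per barcode and of 609 top hashtag UMIs, and held 27 of the 65 members with more than 5 pan-leukocyte UMIs. It is left unnamed. Over all members, 12 endothelial markers summed to 224, 193, 130 and 227 CPM and 14 mast cell and basophil markers to 140, 78.2, 114 and 107 CPM, with 6 of the latter at 0 (Fcer1a and Ms4a2 among them). Of 8 neutrophil markers 7 were at 0, and of 8 neural and glial markers 6. Subcluster 6 (7 barcodes) was led by Upk3b, Slurp1, Igfbp6, Tnnt2 and Sbsn and held the mesothelial list at 11901 CPM, so it is mesothelial-like. Subcluster 7 (6 barcodes) was led by Ager, Aqp5, Cldn18, Ctsh and Tmem213 and held the epithelial list at 16540 CPM beside the alveolar fibroblast list at 16799 CPM and the elastic fibre list at 13907 CPM, so it is left unnamed; in subcluster 6 the alveolar list stood at 1123 CPM. These 13 barcodes held 8.96% of all member UMIs. By litter they numbered 0, 1, 3 and 3 in subcluster 6 and 0, 1, 2 and 3 in subcluster 7. More than 5 pan-leukocyte UMIs were found in 5 of the 7 and in 4 of the 6. Doublets within a litter were not removed, since such pairs share a hashtag, and their part in these subclusters was not tested.

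**Figure D2:**
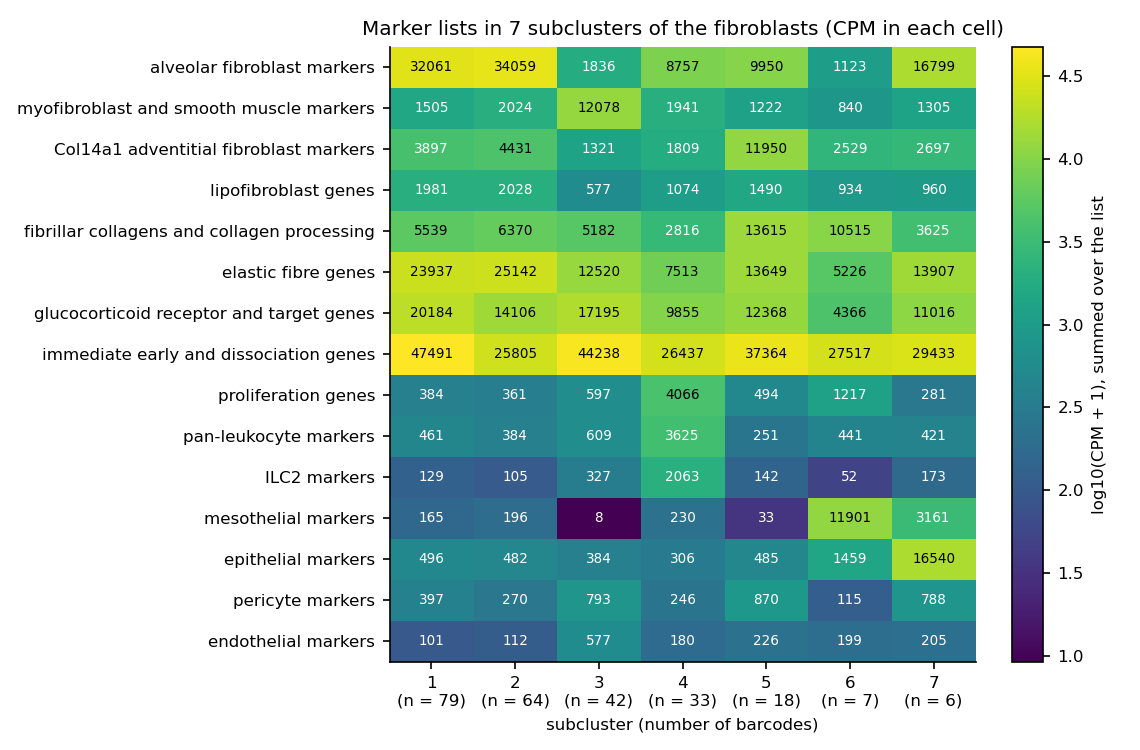
Summed CPM of 15 marker lists (rows) in the 7 subclusters of the members (columns, with the number of barcodes); colour is log10 of CPM plus 1 and each cell prints the CPM. The alveolar list stands at 32061 and 34059 CPM in subclusters 1 and 2, and the mesothelial and epithelial lists peak in subclusters 6 and 7.

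Fibroblasts made up 1.96% and 4.86% of singlets in the DEX litters (34 of 1732, 95% Wilson interval 1.41 to 2.73; 112 of 2305, 4.05 to 5.81). In the PBS litters they made up 2.61% and 2.01% (50 of 1919, 1.98 to 3.42; 53 of 2642, 1.54 to 2.61). DEX-2 stood above the other litters, and DEX-1 lay below both PBS litters. The groups therefore overlapped, and their means were 3.41% and 2.31% (two-sided exact permutation test over litters, p = 1; 0.333 is the smallest p this design allows). Without DEX-2 the difference of DEX minus PBS turned from 1.11 to -0.34 percentage points. The intervals cover counting error only, and the share of barcodes that a hashtag could place cannot be told apart from the share of cells sorted.

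Between DEX and PBS litters, 8 genes rose and 63 fell in fibroblasts, counted on UMIs summed per litter with the quasi-likelihood test of edgeR at an adjusted p under 0.05. Of the 6605 genes past the filter on low counts, 4 were rule genes, and the calls are counted over the other 6601. The share called was 1.08% of these genes, 0.121% higher and 0.954% lower in DEX. All 71 called genes had litters that did not overlap between groups, as did 35.5% of all genes tested. Leaving out 1 litter at a time gave 108 to 191 calls. The genes that rose were the metallothioneins Mt1 and Mt2, which bind zinc and copper, Tnfaip6, which modifies hyaluronan and dampens inflammation, the contractile actin Acta2, the matrix protein gene Tgfbi, Odc1 of polyamine synthesis, the centromere gene Cenpa and the small GTPase gene Rrad. Most genes that fell had the bulk of their UMIs in 24 of the 249 barcodes, which carried mesothelial or epithelial markers.

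Tnfaip6 (chromosome 2, 52038009 to 52056686, GRCm38) stood at 235, 264, 88.6 and 46.9 TMM-scaled CPM, so the DEX litters were the higher pair with a wide gap. The log2 fold change was 1.92 ± 0.26 (standard error derived from the F statistic, edgeR adjusted p = 0.00245, n = 2 litters a group). The gene had a UMI in 32.4% and 34.8% of members of the DEX litters and in 24% and 20.8% of the PBS litters, and 24.7% of its UMIs lay in the 5 highest barcodes.

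Mt2 (chromosome 8, 94172664 to 94173568) stood at 82.9, 67.7, 5.06 and 12.2 CPM, from 25, 53, 2 and 6 UMIs. Its log2 fold change was 2.99 ± 0.44 (edgeR adjusted p = 0.00359), and its UMIs came from 28 members, with 44.2% of them in the 5 highest. With limma-voom the call was lost (2.90, limma adjusted p = 0.273). Mt1, which lies beside it (94179082 to 94180327), stood at 1608, 1698, 1020 and 941 CPM. Neither gene's litters overlapped between groups. The log2 fold change of Mt1 was 0.76 ± 0.12 (edgeR adjusted p = 0.00609), a smaller difference from 143 members with a UMI; without PBS-2 it missed the threshold (0.70, edgeR adjusted p = 0.0712).

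The promoters of these 3 genes are shown because the metallothioneins rose together and Tnfaip6 was called again in a narrower set. That set left out members with more than 5 UMIs of mesothelial, epithelial or pan-leukocyte markers. Each line gives the 250 bases before the RefSeq start (GRCm38.p6, plus strand), 5′ to 3′, with matches to the core of the metal response element in capitals (TGCACNC or TGCGCNC, both strands, overlaps counted). The windows are chr8:94178839-94179088 for Mt1, chr8:94172368-94172617 for Mt2 and chr2:52037863-52038112 for Tnfaip6. The GENCODE gene positions given above start earlier than RefSeq for Tnfaip6 (52038009) and Mt1 (94179082). By those positions the end of each of these windows lies inside the gene.
Mt1: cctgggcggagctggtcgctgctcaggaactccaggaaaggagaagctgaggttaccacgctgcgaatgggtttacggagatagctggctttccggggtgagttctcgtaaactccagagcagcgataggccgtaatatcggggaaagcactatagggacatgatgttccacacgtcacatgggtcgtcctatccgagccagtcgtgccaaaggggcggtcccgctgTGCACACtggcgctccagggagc
Mt2: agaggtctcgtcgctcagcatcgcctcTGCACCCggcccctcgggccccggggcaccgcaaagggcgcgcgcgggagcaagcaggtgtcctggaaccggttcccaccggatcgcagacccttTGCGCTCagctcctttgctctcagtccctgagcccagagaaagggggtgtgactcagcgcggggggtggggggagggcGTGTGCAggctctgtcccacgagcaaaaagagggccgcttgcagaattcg
Tnfaip6: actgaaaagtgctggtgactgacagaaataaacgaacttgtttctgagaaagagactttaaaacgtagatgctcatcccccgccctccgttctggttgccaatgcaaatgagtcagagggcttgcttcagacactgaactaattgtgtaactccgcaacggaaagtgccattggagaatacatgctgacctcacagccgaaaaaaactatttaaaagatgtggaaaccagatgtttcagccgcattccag
Mt1 held 1 match, Mt2 held 3 and Tnfaip6 none, where 21.4% of 32851 promoters of this length held at least 1 and 1.26% at least 3. The short recognition motif of the glucocorticoid receptor, searched as AGAACA on both strands, was found in none of the 3 windows and in 16.1% of all promoters. These matches describe the letters of the windows only, and bases outside the windows, on either side, were not searched.

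Acta2, the smooth muscle actin of contractile cells, stood at 1018, 911, 519 and 510 CPM. The groups did not overlap, with a log2 fold change of 0.90 ± 0.14 (edgeR adjusted p = 0.00523). Tgfbi, the leading gene of subcluster 3, stood at 653, 596, 326 and 347 CPM, with a log2 fold change of 0.88 ± 0.15 (adjusted p = 0.0102 by edgeR). Tgfbi stood at 3599 CPM in subcluster 3 and at 44.8 CPM in the other members. That subcluster held 6, 22, 6 and 8 of the 34, 112, 50 and 53 members, and its part in these differences was not tested. With a minimum of 20 UMIs for the 3 rule markers, both calls were lost: Tgfbi had a log2 fold change of -0.13 and Acta2 of 0.62 (edgeR adjusted p = 0.986 and 0.161). With members thinned to 2000 UMIs Acta2 had 0.45 (edgeR adjusted p = 0.632), and without PBS-1 Tgfbi had 0.85 (edgeR adjusted p = 0.0551). Of the 11 tested genes of the myofibroblast and smooth muscle list, 2 rose, these 2, and none fell; the list median was a log2 fold change of 0.24, against 0.00 over all genes. Tagln, a further contractile gene, missed the threshold at 0.74 ± 0.18 (edgeR adjusted p = 0.079).

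Odc1 stood at 557 and 337 CPM in the DEX litters and at 162 and 208 CPM in the PBS litters (log2 fold change 1.23 ± 0.24, edgeR adjusted p = 0.0243). Cenpa stood at 162 and 114 CPM against 43.0 and 55.1 (1.42 ± 0.29, edgeR adjusted p = 0.0281), and 55.5% of its UMIs lay in leukocyte-marked members. Rrad stood at 33.2 and 93.2 CPM against 12.7 and 12.2 (2.48 ± 0.51, edgeR adjusted p = 0.0324), and 86.2% of its UMIs lay there. Without DEX-2 its log2 fold change was 1.39 (edgeR adjusted p = 0.785), and with a minimum of 20 UMIs for the 3 rule markers Odc1, Cenpa and Rrad all missed the threshold (edgeR adjusted p = 0.232, 0.748 and 0.0627). Leukocyte-marked members, those with more than 5 UMIs of 10 pan-leukocyte genes, numbered 15, 18, 11 and 21. All 10 genes of that list had UMIs in members, and their summed level was 1887, 906, 1080 and 1378 CPM (two-sided exact permutation p = 1).

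The falls were led by the mesothelial genes. Msln, the surface antigen mesothelin, had 2 and 19 UMIs in the DEX litters and 157 and 147 in the PBS litters, with a log2 fold change of -4.19 ± 0.33 (edgeR adjusted p = 4.01e-05). Upk3b, a uroplakin of mesothelium, had 99.5, 38.3, 428 and 345 CPM (log2 fold change -2.69, edgeR adjusted p = 0.000792), and Igfbp6 had 86.2, 53.6, 435 and 576 CPM (-2.96, edgeR adjusted p = 4.04e-05). Lbp, a binding protein of bacterial lipopolysaccharide, had no UMI in the DEX litters and 17 and 20 in the PBS litters, at least 15.03-fold lower in DEX against a floor of 3 counts over the group. Tnnt2 had 0, 1, 56 and 42 UMIs, and its level in PBS over DEX was 119 (95% exact counting interval 20.9 to 4766). That interval covers counting error only, not the spread between barcodes or litters. The 5 highest of the 8 members with a Tnnt2 UMI held 97.0% of its UMIs. Of the 6 tested genes of the 9 mesothelial markers, 5 fell (Msln, Upk3b, Krt18, Krt19 and Rspo1) and none rose. The list's summed level was 390 and 240 CPM in the DEX litters and 1315 and 1636 CPM in the PBS litters, and every one of its markers had a UMI.

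Genes of alveolar type 1 epithelium fell beside them. Ager, the receptor that marks these flat cells, had 29.8, 47.2, 273 and 535 CPM (log2 fold change -3.29 ± 0.33, edgeR adjusted p = 0.000218). Cldn18, a tight junction gene, had 3.32, 12.8, 73.4 and 118 CPM (-3.26, edgeR adjusted p = 0.00245), and Hopx had 56.4, 90.7, 256 and 710 CPM (-2.64, edgeR adjusted p = 0.00439). Of 14 epithelial markers 6 were tested, of which 5 were called lower (Ager, Cldn18, Hopx, Krt8 and Krt18) and none higher. The other tested marker was not called but went the opposite way, with an unadjusted p under 0.05 in edgeR. That list, surfactant genes included, summed to 497, 974, 1007 and 2082 CPM.

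Most UMIs of the genes that fell lay in few barcodes. Members with more than 5 mesothelial UMIs numbered 2 and 3 in the DEX litters and 5 and 9 in the PBS litters, and those with more than 5 epithelial UMIs, surfactant genes left out, numbered 1, 2, 6 and 7; 11 members were both. Together these 24 members held 11.6% and 3.36% of the member UMIs in the DEX litters and 21.2% and 28.0% in the PBS litters. Among the 63 genes that fell, a median of 91.7% of UMIs lay in these members, against 13.5% over all genes tested and 2.70% for the 8 genes that rose, and 55 of the 63 had over 50% there. Of the 20 leading genes of subcluster 6, 19 were among the falls, and 15 of those of subcluster 7. The markers that chose the 24 members stayed in these counts. Msln, Upk3b, Krt18, Krt19, Rspo1, Krt8, Hopx, Ager and Cldn18 are both markers and falls, so their share was partly set by the choice. All barcodes of subclusters 6 and 7 were among the 24 members, so their leading genes are no separate support.

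**Figure D3:**
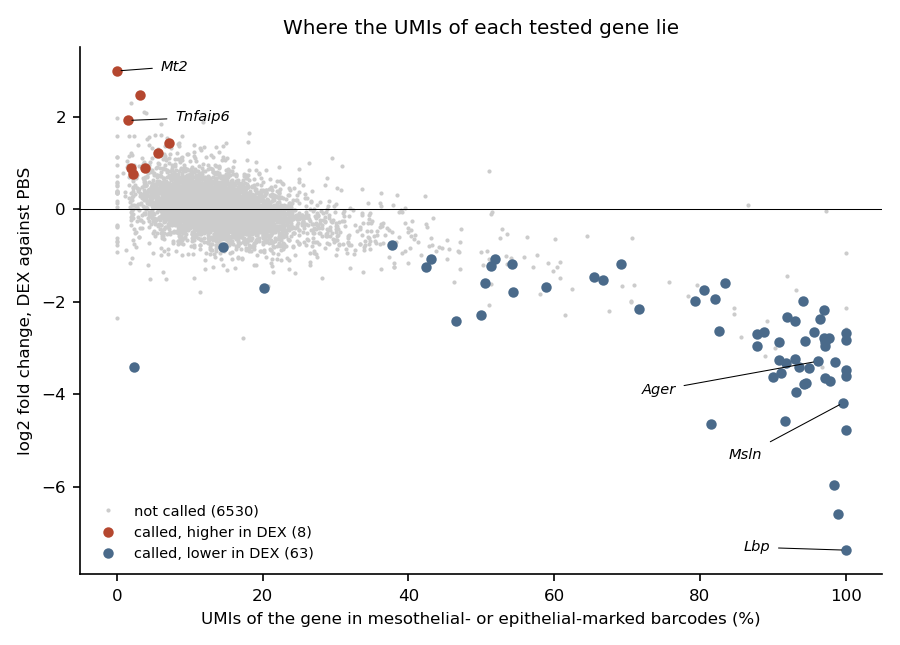
For each tested gene, the log2 fold change of DEX against PBS (vertical axis) and the percentage of its member UMIs in mesothelial- or epithelial-marked barcodes (horizontal axis); grey points were not called, red points rose and blue points fell. The 8 rises lie at 7.14% or less and most falls at 80% or more.

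Without the 24 mesothelial- or epithelial-marked members, none of 5463 genes passed the adjusted threshold in edgeR, and 233 had an unadjusted p under 0.05. Of the 63 falls only 18 then passed the filter on low counts, with a median log2 fold change of -0.39 where it had been -1.50 for the same 18. For falls that were themselves markers, the loss was partly set by leaving out members chosen on them. All 8 rises passed the filter, stayed higher by log2 fold change (median 1.33) and had an unadjusted p under 0.05. This selection, and the next, were added after the data had been seen.

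Of the members, 172 held at most 5 UMIs of each of the 3 marker sets (17, 92, 34 and 29 by litter). They are called unmarked, though low counts of these markers could remain in them. Among them 2 of 3573 genes were called, 0.056%, both higher in DEX. Tnfaip6 stood at 350, 345, 71.4 and 90.0 CPM, with a log2 fold change of 2.11 (edgeR adjusted p = 0.000902). Hmox1, the haem-degrading enzyme heme oxygenase 1, stood at 214, 180, 52.4 and 45.0 CPM (log2 fold change 1.95, edgeR adjusted p = 0.00924), and in all members it missed the threshold (1.06, adjusted p = 0.0711 by edgeR). Mt2 stood at 188, 70.0, 4.76 and 11.2 CPM (3.67, edgeR adjusted p = 0.0567). Mt1 and Odc1 had log2 fold changes of 0.46 and 1.05 there and were not called (edgeR adjusted p = 0.95 and 0.298). Acta2 was then 760, 1141, 571 and 1170 CPM, and Tgfbi 615, 844, 252 and 844 CPM, so for both genes the groups overlapped.

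The hashtag rule moved the calls as well. With at least 30 hashtag UMIs and 5 times the next hashtag, which left 22, 75, 35 and 40 members, only Tm4sf1 was called. Tnfaip6 had a log2 fold change of 1.31 there (edgeR adjusted p = 0.558) and Mt2 of 2.93 (adjusted p = 0.208 by edgeR). With leukocyte-marked members left out, Tnfaip6 was the 1 gene called (2.12, edgeR adjusted p = 0.0383).

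Of the 63 falls, 8 had 50% or less of their UMIs in these barcodes (Cited2, C7, Csf2, Bsg, Timp2, Rgcc, Emp2 and Ndnf), and those outside the naming rule are named after their values were seen. Cited2, a transcriptional coregulator, had 99, 330, 271 and 321 UMIs and fell by 0.82 on the log2 scale (edgeR adjusted p = 0.0265), with 14.5% of its UMIs in marked barcodes. The complement gene C7 had 10, 19, 31 and 49 UMIs and fell by 1.71 (edgeR adjusted p = 0.0201), with 20.2% there. The cytokine gene Csf2 had 3, 1, 20 and 18 UMIs, of which 95.2% lay in leukocyte-marked barcodes. In the 172 unmarked members Cited2 had a log2 fold change of -0.84 (unadjusted p = 0.000509, adjusted p = 0.182 by edgeR) and C7 of -1.30 (adjusted p = 0.785 by edgeR).

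Of 42 listed genes of the glucocorticoid receptor and its known targets, all in the matrix, 34 were tested, 2 rose (Mt1 and Mt2) and none fell. Their median log2 fold change was -0.12, and 14 of the 34 were above 0. Without DEX-2, 6 of the list were called, without PBS-2 1, and without the marked members or with the stricter hashtag rule none. Nr3c1 itself stood at 239, 195, 180 and 147 CPM, with a difference that missed the threshold (0.39 ± 0.21, edgeR adjusted p = 0.849). Fkbp5, the classical induced co-chaperone of the receptor, had 22, 38, 34 and 33 UMIs, and Tsc22d3, which encodes the glucocorticoid-induced leucine zipper, had 229, 223, 223 and 290 CPM. Tsc22d3 was highest in PBS-2 and level in the other litters, Fkbp5 overlapped between groups (72.9, 48.5, 86.04 and 67.3 CPM), and neither gene was called (edgeR adjusted p = 0.989 for Tsc22d3 and 0.943 for Fkbp5). Per1 (log2 fold change -0.19), Zbtb16 (0.03), Klf9 (0.21), Sgk1 (-0.59), Crispld2 (0.35) and Hsd11b1 (-0.10) were not called either. Cebpd and Cebpb, factors of the acute response, were present at 3732 and 3012 CPM and showed log2 fold changes of -0.14 ± 0.13 and -0.19 ± 0.11.

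**Figure D4:**
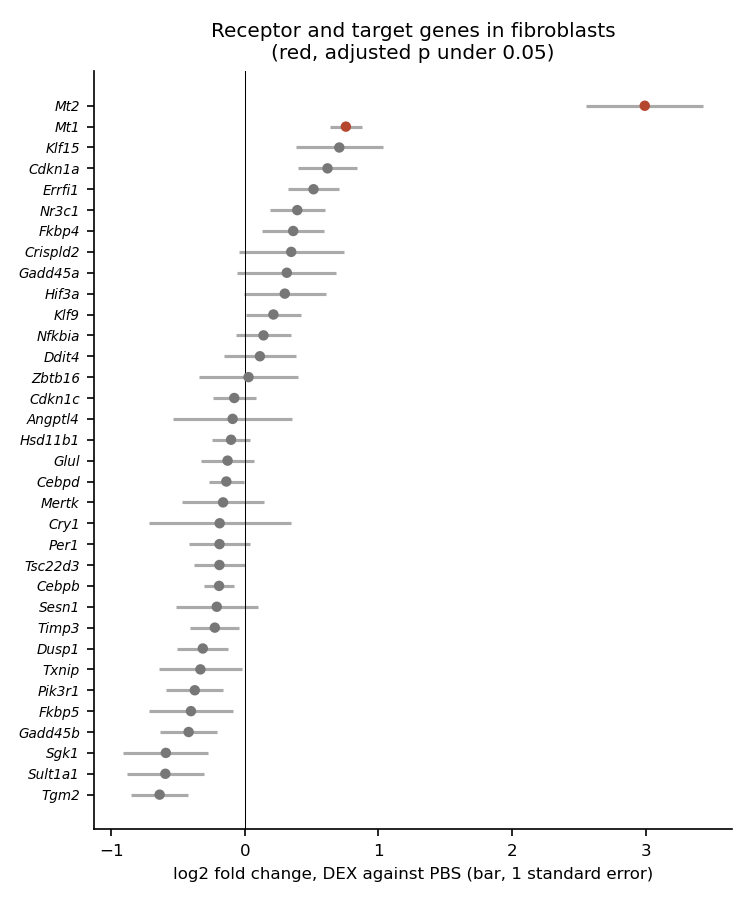
Log2 fold change of DEX against PBS in fibroblasts for the 34 tested genes of the receptor and target list; bars are 1 standard error and red marks an adjusted p under 0.05. Mt2 and Mt1 are the called genes, at 2.99 and 0.76, and 14 of the 34 lie above 0.

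Among the 3 matrix lists only Tgfbi was called. None of 20 tested genes of fibrillar collagen and its processing and none of 18 elastic fibre genes was called, with list medians of -0.07 and 0.01. Col1a1 had a log2 fold change of -0.03 ± 0.15 and Eln of -0.05 ± 0.13, and for both the litters overlapped between groups. The collagen list summed to 5179 and 5675 CPM in the DEX litters and 6100 and 5412 CPM in the PBS litters. Fbln1, a fibulin of elastic fibres, came closest among these lists (0.88 ± 0.22, edgeR adjusted p = 0.106). Of 23 tested basement membrane and glycoprotein genes only Tgfbi was called; Sparc, a collagen-binding glycoprotein, had 1939, 2418, 3075 and 3070 CPM before TMM scaling and a log2 fold change of -0.51 ± 0.13 (edgeR adjusted p = 0.113). Fn1 and Vcan, matrix glycoprotein genes, had log2 fold changes of -0.26 and 0.41 and were not called.

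None of 16 tested alveolar fibroblast markers, 8 lipofibroblast genes, 10 adventitial markers and 21 mesenchymal transcription factors was called. Mfap4 had a log2 fold change of -0.13 ± 0.14, Fgf10 of -0.14 ± 0.30 and Wnt2 of -0.01 ± 0.18, and Tbx4, Foxf1 and Pdgfra had 0.35, 0.52 and 0.24. In the adventitial list, whose median was -0.54, the dermatopontin gene Dpt had 94.2, 113, 192 and 182 CPM before TMM scaling and missed the threshold (-0.83 ± 0.21, edgeR adjusted p = 0.107). Of 20 tested genes of WNT, hedgehog and BMP signalling 1 fell, Sfrp2, with 80.6% of its UMIs in marked barcodes; Sfrp1, also a secreted WNT inhibitor, had 25, 67, 6 and 19 UMIs (1.59 ± 0.37, edgeR adjusted p = 0.0785). Of 28 tested growth factor pathway genes 2 fell, Igfbp5 and Igfbp6, with 82.1% and 97.1% there. None of 15 vascular and immune ligands was called. Of 21 proliferation genes 1 rose (Cenpa), and Mki67, with 7, 28, 23 and 7 UMIs, was not called (-0.14 ± 0.53). None of 20 immediate early genes was called; Ier2 was nearest (-0.53 ± 0.13, edgeR adjusted p = 0.0904).

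**Figure D5:**
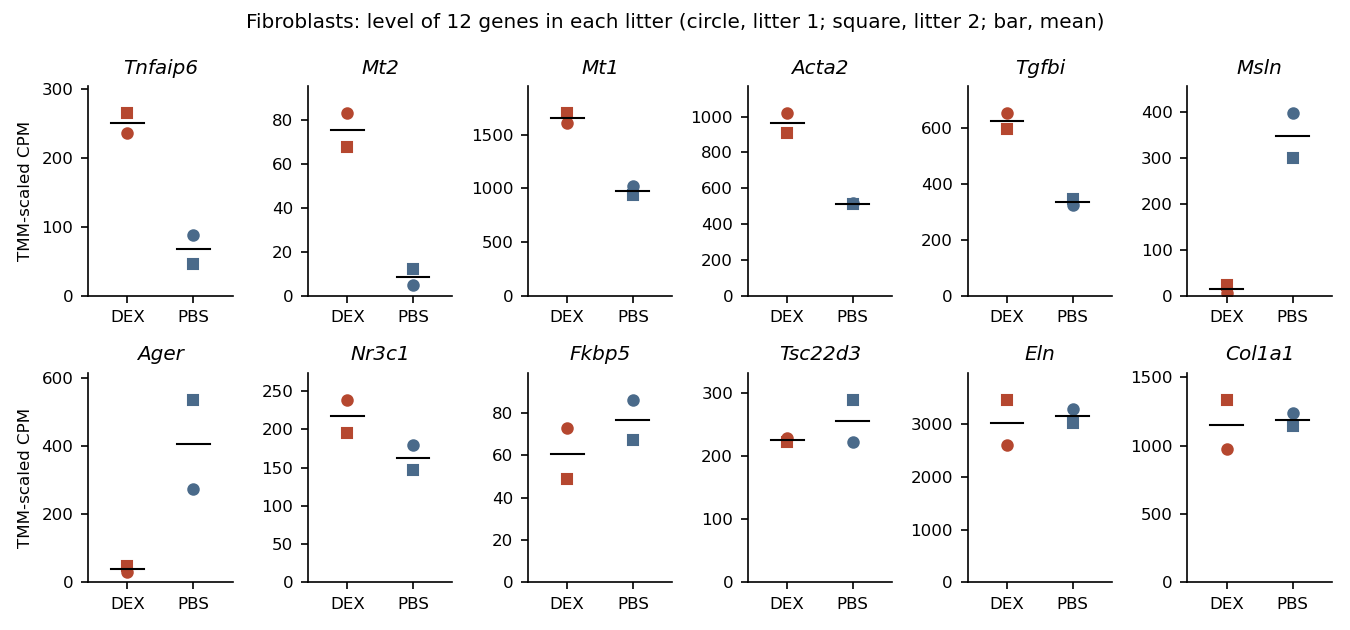
TMM-scaled CPM of 12 genes in the fibroblasts of each litter (circles, litter 1; squares, litter 2; DEX red, PBS blue; bars are group means; each axis starts at 0). Tnfaip6, Mt2, Mt1, Acta2 and Tgfbi are higher and Msln and Ager lower in both DEX litters, while Fkbp5, Tsc22d3, Eln and Col1a1 overlap between groups.

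Whether a DEX difference was particular to fibroblasts was tested as the interaction of class and group against all other singlets, with litter as a term. It was called for 120 of 15218 genes (0.789%), 43 with a more positive difference in fibroblasts and 77 with a more negative one. Of the 71 genes called in fibroblasts, 54 were among them, 6 of the rises and 48 of the falls. For Mt2 the group means were 68.8 and 7.96 CPM, scaled in that fit, in fibroblasts of DEX and PBS litters and 42.7 and 37.6 CPM in the other singlets, an interaction of 2.81 ± 0.51 (log2, edgeR adjusted p = 1.81e-05). Tnfaip6 had an interaction of 1.26 ± 0.35 (edgeR adjusted p = 0.0404) and Acta2 of 0.95 ± 0.23 (edgeR adjusted p = 0.00702), while that of Mt1, 0.62 ± 0.22, missed the threshold (edgeR adjusted p = 0.309). For Tnfaip6 the DEX and PBS means were 229 and 62.1 CPM in fibroblasts and 8.74 and 5.46 CPM in the other singlets. Its difference thus had the same direction in both classes. Of the named falls called in the interaction, all but Sfrp2 and Slurp1 also had the lower mean in DEX in the other singlets. Those means in DEX and PBS were 92.7 and 123 CPM for Msln and 610 and 918 CPM for Ager. For such genes the interaction concerns the size of the fall. Foxf1, a mesenchymal and endothelial factor, had 138 and 95.1 CPM in fibroblasts and 43.3 and 78.3 CPM in the other singlets (interaction 1.38 ± 0.28, edgeR adjusted p = 0.000384). The other singlets hold many cell types, so their mean reflects their mixture.

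At the edge of the rule, the 14 members with a sum of 10 or 11 for the 3 markers had a median of 2.5 Col1a1 UMIs and a Tbx4 UMI in 64.3%. The 8 barcodes just outside, with a sum of 8 or 9 and all other limits met, had a median of 2.5 Col1a1 UMIs and a Tbx4 UMI in 75%.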

How the data were processed

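Gene and hashtag transcripts were measured together in sorted fetal lung cells of 4 litters, loaded as 1 pool with the Chromium 5′ kit. The authors deposited raw counts of UMIs, made with Cell Ranger multi (version 7; 7.0.0 in the file header) on mm10 per the submitters' processing notes, with no normalization. The hashtag rows were matched by number to the antibodies that the labels tie to each mother. Barcodes with at least 200 genes, at most 5% mitochondrial UMIs and a top hashtag of at least 10 UMIs and 3 times the next were kept as singlets. Doublets within a litter were not removed. The members and gene lists were chosen with earlier results of these data known.

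UMIs were summed per litter and fitted with edgeR 4.0.16 (R 4.3.3; TMM, filterByExpr, glmQLFit and glmQLFTest, two-sided, Benjamini-Hochberg over all genes tested, 0.05), and CPM are TMM-scaled where a fold change is given. Each litter came from its own mother, so n counts litters (2 a group). Shares and list levels were compared by exact permutation tests. The steps were tested on simulated counts. Members were clustered with scanpy 1.11.5 without the rule genes. For shares of barcodes with a UMI, barcodes were thinned to 2000 UMIs; all 249 members and 199 of 214 B-marked barcodes reached that depth. Alternatives used DESeq2 1.42.0, limma 3.58.1, other scaling, filters, limits and marked members left out. Named genes were the called genes with the 10 largest rises and falls and non-overlapping litters, called genes of the lists up to 30 by p, and a set of receptor, matrix and signalling genes; others are named in the text as chosen later. Gene positions are from GENCODE M21 (GRCm38) by Ensembl identifier, and promoters from RefSeq (GRCm38.p6).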

Additional observations from a re-analysis of the deposited data

Results flagged for a closer look

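Of 578 barcodes with the fibroblast transcripts, 329 carried no single hashtag and entered no comparison between litters, which makes them a body of fibroblast signal outside the comparison. Their share, 56.9%, stood against 17.4% over all barcodes past the quality limits, and 91 of the 578 had a top hashtag under 10 UMIs.

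The DEX difference itself differed between fibroblasts and all other singlets for 120 of 15218 genes by the interaction test of edgeR. Msln led these with an interaction of -3.93 ± 0.34 on the log2 scale (edgeR adjusted p = 2.41e-27, n = 2 litters a group). Its member UMIs came from 14 barcodes, with 69.8% of them in the 5 highest. The p rests on sums over 4 litters, and spread between barcodes does not enter it. In the other singlets the Msln means were 92.7 and 123 CPM in DEX and PBS, so they shared the direction. The 24 mesothelial- or epithelial-marked members moved with these genes, and the part they had in the interaction was not tested.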

How the results depend on the processing

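Against 71 genes called between DEX and PBS, DESeq2 and limma-voom called 40 each (40 and 39 of them shared), and no filter on low counts 170. Thinning members to 2000 UMIs gave 18. The hashtag rule of 30 UMIs and 5 times the next gave 1, leaving out leukocyte-marked members 1, leaving out mesothelial- or epithelial-marked members 0 and leaving out members of all 3 marker sets 2. The rule of 50 UMIs and 5 times the next gave 0, as did the 30 UMI rule with all marked members left out; the last 4 of these selections were chosen after seeing the data. Fewer members or genes entered each of these selections. Without DEX-1, DEX-2, PBS-1 or PBS-2 the calls numbered 150, 191, 108 and 111, where the lone litter of a group is taken to vary as the other group does.

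Of the 2 receptor and target genes called, limma-voom and thinning kept a count of 1, leaving out litters gave 1 to 6, and each selection by marked members or by hashtag UMIs gave 0. The difference in the fibroblast share ranged from -0.34 (without DEX-2) to 2.55 percentage points, and the log2 ratio of the pan-leukocyte list from -0.44 (without DEX-1) to 0.62, so both reversed with 1 litter; causes were not tested. Tgfbi reversed to -0.13 with a minimum sum of 20 UMIs. Of 805 recomputed values of 50 named genes under 19 alternatives, 622 kept direction and call and 130 lost the call. Another 48 without a call changed sign, 4 gained a call and 1 reversed. Genes that an alternative left below the filter on low counts have no value in this tally. Genes not called at first could not lose a call. A mitochondrial limit of 10% kept the same number of members in each litter and returned the same values.

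Litters share only a number: the correlation of deviations of same-numbered litters was -0.04. With litter number as a replicate block 52 genes were called, 51 of them shared, and Tgfbi, Odc1, Cenpa and Rrad lost the call (edgeR adjusted p = 0.0599, 0.16, 0.136 and 0.102). Depth limits the rarest genes, since 3 counts over a litter's members are a few CPM.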

Other observations

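Among genes that no comparison above turned on, the 16 tested hypoxia and glycolysis genes and the 5 tested sterol synthesis genes held no call by edgeR, with median log2 fold changes of 0.00 and 0.21. The hypoxia and glycolysis list summed to 3487, 2730, 2715 and 2921 CPM over the members of DEX-1, DEX-2, PBS-1 and PBS-2, and the sterol list to 289, 280, 370 and 258 CPM, and for both lists the groups overlapped.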
